A study of Homo sapiens with 6 samples.

Results

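The beta-globin locus on chromosome 11 was followed in K562 cells through 72 h of treatment with phorbol 12-myristate 13-acetate (PMA). Its members are the accessible sites with a midpoint in a window of 120 kb, chr11:5200000-5320000 of GRCh38, and 24 of the 181135 listed sites met this rule. Accessibility was measured by ATAC-seq, which reads out where a transposase can reach the DNA: the more open a site, the more reads it collects. K562 is an established human line from a chronic myelogenous leukaemia, and the labels give its genotype as WT. PMA, an activator of protein kinase C, was used at 25 nM to induce a megakaryocyte-like state. The 3 groups were taken after 0, 6 and 72 h, with 2 libraries each, and cells received fresh medium on the way to 72 h. Nothing in the labels says that the libraries of a group came from separate cultures, so the p-values measure the spread between these libraries, which may be technical.

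The beta-like globins are the non-alpha chains of haemoglobin, and their genes lie on 1 strand in the order of their use in development. HBE1 is the embryonic gene, HBG1 and HBG2 are the fetal genes, and HBD and HBB are the adult ones. Upstream of HBE1 lies the locus control region, a row of DNase hypersensitive sites that bind erythroid factors such as GATA1, TAL1, NFE2 and KLF1 and enhance transcription of the globin genes. K562 cells are known for making embryonic and fetal globin rather than adult beta-globin.

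Every site was placed by position alone. A site overlapped the annotated start of HBD, HBBP1 (a beta-like pseudogene), HBG1, HBG2 and HBE1, and the site assigned to BGLT3, a long noncoding RNA gene, lay 868 bases from its start and overlapped its other end. No listed site lay within 1000 bases of the start of HBB, where the nearest was 1073 bases away. The control region sites HS1 to HS5 were assigned as the sites nearest to their textbook distances of 6, 11, 15, 18 and 21 kb upstream of HBE1. They had their midpoints at 6.0, 10.8, 14.8, 18 and 21.3 kb. The 3′HS1 site on the far side of the cluster was assigned in the same way, 20 kb beyond the end of HBB. The other 12 sites lay between genes, near HBB or among olfactory receptor genes.

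The start of HBD is the globin start for which a sequence could be matched, and its upstream bases are shown because the HBD start site, chr11:5234205-5234966, covers them. The sequence is chr11:5234484-5234733 of GRCh38.p14 from RefSeq, on the minus strand, 5′ to 3′, and ends at the base before the annotated start. Capitals mark matches to the motifs that were searched on both strands.
HBD upstream: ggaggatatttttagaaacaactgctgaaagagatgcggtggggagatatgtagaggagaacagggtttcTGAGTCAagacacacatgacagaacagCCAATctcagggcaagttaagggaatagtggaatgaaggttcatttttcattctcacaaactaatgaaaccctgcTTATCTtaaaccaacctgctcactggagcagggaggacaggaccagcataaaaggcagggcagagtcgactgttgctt
TGAGTCA, the core bound by AP-1 and NF-E2, stood at bases −180 to −174 from the start and occurs in 4.20% of the 35116 upstream windows of 250 bases in the table. Its reverse complement is TGACTCA, so both spellings are 1 match. The letters CCAAT, searched as the motif of NF-Y, stood at −153 to −149 (32.0% of windows). The GATA motif AGATAA was read on the opposite strand at −78 to −73 (9.17% of windows). The GATA motif TGATAA (6.66% of windows) and the KLF motif CACCC (54.7%) were not among these 250 bases. A match describes the letters only.

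Reads in all listed sites summed to between 12258890 and 35548737 counts per library, and the window held between 2709 and 7043 of them. The share of a library's counts in the window was 0.0267% and 0.0243% at 0 h, 0.0221% and 0.0209% after 6 h, and 0.0144% and 0.0145% after 72 h. The groups did not overlap on this denominator. Over the counts of sites with a peak in all 6 libraries, the shares were 0.0345% and 0.0312%, then 0.0318% and 0.0304%, then 0.0272% and 0.0273%, so that 0 and 6 h overlapped and the fall to 72 h was smaller. With 2 libraries a side, the smallest p of an exact permutation test is 0.333, so the shares were not tested. Of 10 erythroid marker genes, 9 had a peak at a gene end in both 0 h libraries, with ALAS2 the exception. The same held for 4 of 8 megakaryocyte, 3 of 6 lymphoid and 3 of 5 monocyte markers. In both 72 h libraries, whose peak lists were longer, the numbers were 10 erythroid, 4 megakaryocyte, 4 lymphoid and 4 monocyte markers. Summed over their gene ends, the erythroid markers, which include HBG1, HBG2 and HBE1, had 354 to 369 CPM (counts scaled to library size) at 0 h, 195 to 211 after 6 h and 129 to 140 after 72 h. The megakaryocyte markers had 56.6 to 60.2, 37.2 to 39.1 and 37.0 to 41.1 CPM. The lymphoid sums were 37.1 to 49.2, 35.7 to 41.9 and 35.0 to 38.6, and the monocyte sums 111 to 140, 108 to 124 and 67.4 to 78.2. Their part in the results below was not tested.

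Nearly all sites of the locus changed over the time course. All 24 sites passed the filter on low counts, and 23 differed among the 3 times in edgeR's quasi-likelihood test at a Benjamini-Hochberg adjusted p under 0.05, against 72.0% of all tested sites. Comparing 6 h with 0 h, 13 sites were called, where 40.1% of all tested sites were: 9 fell (16.8% of all sites) and 4 rose (23.4%). Comparing 72 h with 0 h, 20 were called, against 67.4% of all sites: 18 fell (29.2%) and 2 rose (38.2%). The 2 rises became 0 without 0 h replicate 2 or with DESeq2, and 1 without 72 h replicate 1 or without 72 h replicate 2. Between 6 and 72 h, 15 were called, against 42.9% of all sites: 15 fell (20.9%) and 0 rose (22.1%) in edgeR with TMM scaling. Between these times 0 sites were higher at an unadjusted p under 0.05 either, while limma-voom called 16 and DESeq2 13, all lower. Both methods called a smaller share of all tested sites than the 42.9% of edgeR. With TMM factors computed on sites with a peak in every library, edgeR called 7 sites lower and 2 higher in the window. Of all tested sites, it then called more than 42.9%. The 2 higher sites of the window lay 28.0 and 36.3 kb upstream of HBE1. Comparisons at 6 and 72 h share the 0 h libraries. The median log2 fold change over the 24 sites was −0.59 after 6 h, −1.62 after 72 h against 0 h and −0.94 between the later times, and over all tested sites 0.05, 0.29 and 0.03. Of the 24 members, 10 had a peak in all 6 libraries. Among these 10, 5 fell and 0 rose after 6 h, 10 fell and 0 rose after 72 h, and 7 fell and 0 rose between the later times. Among all 35751 tested sites of this kind, 35.0% fell and 13.3% rose after 6 h, 67.9% fell and 9.46% rose after 72 h, and 57.5% fell and 3.68% rose between them. The median after 72 h was −1.47 for the 10 and −0.95 for all such sites. In bulk cells, fewer cells with an open site and less opening per cell cannot be told apart.

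**Figure D1:**
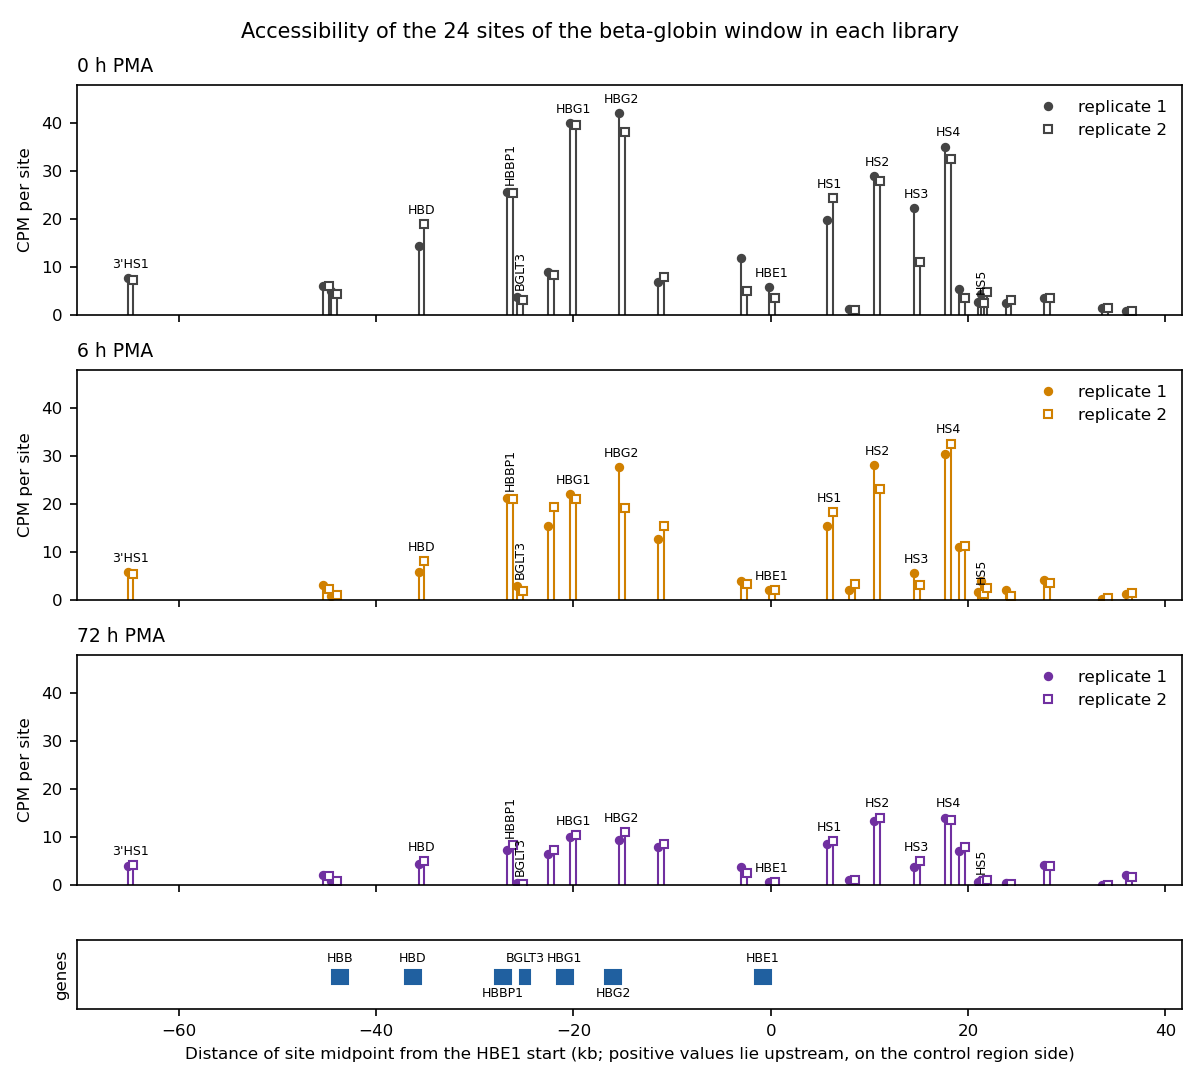
CPM of each of the 24 sites (vertical axis) in each library against the distance of the site from the HBE1 start in kb, with 1 panel per time and the globin genes drawn to scale below. Filled circles are replicate 1 and open squares replicate 2, drawn slightly apart. The HBG1 and HBG2 starts are the highest at 0 h at about 40 CPM, while HS2 and HS4 are the highest after 72 h, between 13.5 and 14.1 CPM.

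The fetal gene starts had the highest level of the window in untreated cells and lost it in steps. The HBG1 start site, chr11:5249517-5250275, had 39.9 and 39.6 CPM in the 0 h libraries, 22.1 and 21.1 after 6 h, and 10.04 and 10.45 after 72 h. The groups did not overlap, and each time was below the one before. Its log2 fold change came to −0.88 (SE 0.16, edgeR adjusted p 0.00013) after 6 h and −1.96 (SE 0.16, 2.0e-09) after 72 h, and between 6 and 72 h it was −1.07 (adjusted p 2.0e-05). The HBG2 start site, chr11:5254451-5255222, had 42.0 and 38.2 CPM at 0 h, 27.7 and 19.2 after 6 h, and 9.44 and 11.1 after 72 h. The log2 fold change was −0.79 (SE 0.18, adjusted p 0.0014) after 6 h and −1.96 (SE 0.18, 9.3e-09) after 72 h. Both genes are near-identical copies, so reads may have been shared between them in the authors' counting. The ratio of HBG1 to HBG2 start counts lay between 0.797 and 1.1 over the 6 libraries, with the 2 extremes in the 6 h libraries. With offsets fitted by loess to each library's trend over site strength (loess offsets), the falls between 6 and 72 h were not called, at −0.36 for HBG1 (adjusted p 0.074) and −0.46 for HBG2 (0.055). The fall from 0 to 72 h was called under each scaling tried, but its size moved. It came to −1.08 for both genes under loess offsets, and to −0.99 for HBG1 and −0.998 for HBG2 under TMM factors computed on sites with a peak in every library (shared-peak TMM).

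The embryonic gene start was weak and fell further. The HBE1 start site, chr11:5269680-5270329, had 5.91 and 3.49 CPM at 0 h, 2.13 and 2.09 after 6 h, and 0.647 and 0.684 after 72 h. Its groups did not overlap, although the 0 h libraries differed from each other more than those of either later time. The log2 fold change was −1.14 (SE 0.34, adjusted p 0.0095) after 6 h and −2.80 (SE 0.35, 5.3e-07) after 72 h. Without 0 h replicate 1 the 6 h value was −0.79 and was not called (adjusted p 0.115), nor was it without 6 h replicate 2 (−1.18, 0.051) or under shared-peak TMM (−0.85, 0.060). A deposited peak was found at this site in both 0 h libraries and in none of the later 4. The site 719 bases beyond the other end of HBE1, chr11:5266858-5267626, had 12.0 and 5.02 CPM at 0 h and between 2.55 and 3.92 in the other libraries. Its fall after 6 h (−1.23, adjusted p 0.0054) and after 72 h (−1.41, 0.00055) rested on 0 h replicate 1, without which the values were −0.55 (0.193) and −0.68 (0.062). Its 6 h call was also lost without 6 h replicate 2 (−1.15, 0.052), and its 72 h call under shared-peak TMM (−0.45, 0.232).

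Adult genes were represented by HBD and by the 3′ end of HBB. At the HBD start site there were 14.5 and 18.9 CPM at 0 h, 5.88 and 8.19 after 6 h, and 4.47 and 5.12 after 72 h. The log2 fold change was −1.22 (SE 0.23, adjusted p 0.00019) after 6 h and −1.80 (SE 0.23, 4.7e-07) after 72 h, and both falls were called under all 5 scalings between libraries (TMM, RLE size factors, total counts, loess offsets and shared-peak TMM). The further change of −0.58 between 6 and 72 h (adjusted p 0.046) was not called without 6 h replicate 2 (−0.24, 0.565), 72 h replicate 1 (−0.44, 0.308) or 72 h replicate 2 (−0.62, 0.149). The call was also lost under total counts (−0.22, 0.456), loess offsets (−0.24, 0.421), shared-peak TMM (0.09, 0.762) and DESeq2 (−0.61, 0.072). A pair of sites marked the end of HBB, the adult beta-globin gene. The site that overlaps its 3′ end, chr11:5225351-5225998, had 5.00 and 4.395 CPM at 0 h and between 0.905 and 1.04 in all 4 later libraries. Its log2 fold change was −2.22 (SE 0.35, adjusted p 3.0e-05) after 6 h, −2.34 (SE 0.33, 2.0e-06) after 72 h and −0.12 (SE 0.37, 0.819) between the later times. The neighbouring site 225 bases beyond HBB, chr11:5224481-5225239, had −1.17 (adjusted p 0.0024) after 6 h and −1.54 (4.3e-05) after 72 h, the latter not called under shared-peak TMM (−0.57, 0.073).

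Between the fetal and adult genes, the pseudogene and the noncoding gene were called lower after 72 h and not after 6 h. The HBBP1 start site, chr11:5242780-5244225, had 25.6 and 25.5 CPM at 0 h, 21.2 and 21.2 after 6 h, and 7.45 and 8.35 after 72 h. Replicates were close at each time, and the 72 h libraries stood apart from the others. Its log2 fold change was −0.27 (SE 0.17, adjusted p 0.218) after 6 h and −1.69 (SE 0.17, 3.4e-08) after 72 h, and the change between the later times was −1.42 (2.4e-06). The site assigned to BGLT3, chr11:5244406-5244678, had 3.77 and 3.11 CPM at 0 h, 2.90 and 1.83 after 6 h and 0.414 and 0.377 after 72 h. Its change was −0.59 (SE 0.35, adjusted p 0.186) after 6 h and −3.1 (SE 0.39, 5.2e-07) after 72 h. Under loess offsets the 6 h value was called, at −0.92 (adjusted p 0.041).

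Within the control region, HS3 was the site called after 6 h under TMM, and all 5 sites were called lower after 72 h. HS2, an enhancer of the control region, had 28.9 and 28.0 CPM at 0 h, 28.2 and 23.1 after 6 h, and 13.5 and 14.1 after 72 h (chr11:5280418-5281159). The 0 and 6 h libraries overlapped, and both 72 h libraries were below them. HS2 changed by −0.16 (SE 0.17, edgeR adjusted p 0.477) after 6 h and by −1.04 (SE 0.17, 1.1e-05) after 72 h. HS4, chr11:5287335-5288615, had 35.1 and 32.5 CPM at 0 h, 30.4 and 32.6 after 6 h, and 14.1 and 13.7 after 72 h. It showed the same order as HS2, with overlap at 0 and 6 h. Its values were −0.10 (SE 0.15, adjusted p 0.645) and −1.28 (SE 0.16, 3.3e-07). The size of these late falls depended on the scaling. Under loess offsets HS2 was at −0.14 (adjusted p 0.448) and HS4 at −0.29 (0.090) after 72 h, and under shared-peak TMM at −0.08 (0.681) and −0.31 (0.068). From 6 to 72 h, the fall of HS4 was called under all 5 scalings (−1.22 to −0.40). That of HS2 (−0.92 to −0.16) was called under 3 of the 5. HS1, chr11:5275572-5276282, had 19.8 and 24.4 CPM at 0 h, 15.5 and 18.3 after 6 h, and 8.54 and 9.29 after 72 h. It was at −0.38 (adjusted p 0.107) after 6 h and at −1.31 (SE 0.19, 2.6e-06) after 72 h. Its 6 h value was called without 0 h replicate 1 (−0.58, adjusted p 0.030), under RLE (−0.53, 0.030) and with DESeq2 (−0.53, 0.046), and with shared-peak TMM its 72 h value was not (−0.34, 0.093).

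HS3, another enhancer of the control region, lost most of its signal by 6 h. HS3, chr11:5284513-5285036, had 22.4 and 11.1 CPM at 0 h, 5.71 and 3.099 after 6 h, and 3.88 and 5.00 after 72 h. The 0 h libraries differed widely from each other, and none of the later libraries reached either of them. The log2 fold change came to −1.99 (SE 0.31, edgeR adjusted p 2.6e-05) after 6 h, −1.90 (SE 0.29, 7.5e-06) after 72 h and 0.09 (SE 0.31, 0.838) between the later times. Within the replicate 1 libraries the 72 h value was −2.50 and within the replicate 2 libraries −1.14, while the 6 h values were −1.96 and −1.82. The falls at both times were called under all 5 scalings. A deposited peak was found at HS3 in both 0 h libraries and in no later library, whereas HS1, HS2 and HS4 had one in all 6 and HS5 in 0. HS5, which lies at the outer border of the control region and binds the insulator protein CTCF, was a weak site of 207 bases (chr11:5291174-5291380) with 2.79 and 2.48 CPM at 0 h, 1.79 and 1.30 after 6 h, and 0.673 and 0.873 after 72 h. It was called after 72 h (−1.76, SE 0.37, adjusted p 0.00029) and not after 6 h (−0.82, 0.089). The 72 h call was lost under shared-peak TMM (−0.80, 0.067), and the 6 h value was called under RLE (−0.97, 0.041) and loess offsets (−1.14, 0.019). The adjoining site at 21.6 kb was also called after 72 h (−1.96, adjusted p 1.1e-05) and lies near the textbook distance of HS5 too. It had a deposited peak in both 0 h libraries, and its level there was 20.1 CPM per kb, against 12.7 at the site named HS5. At the other border, 3′HS1, which also binds CTCF, had 7.73 and 7.26 CPM at 0 h, 5.80 and 5.47 after 6 h, and 4.11 and 4.27 after 72 h (chr11:5204713-5205310). Its 72 h value of −0.84 (SE 0.23, adjusted p 0.0031) was not called under total counts (−0.34, 0.198) and was 0.13 (0.626) under shared-peak TMM.

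**Figure D2:**
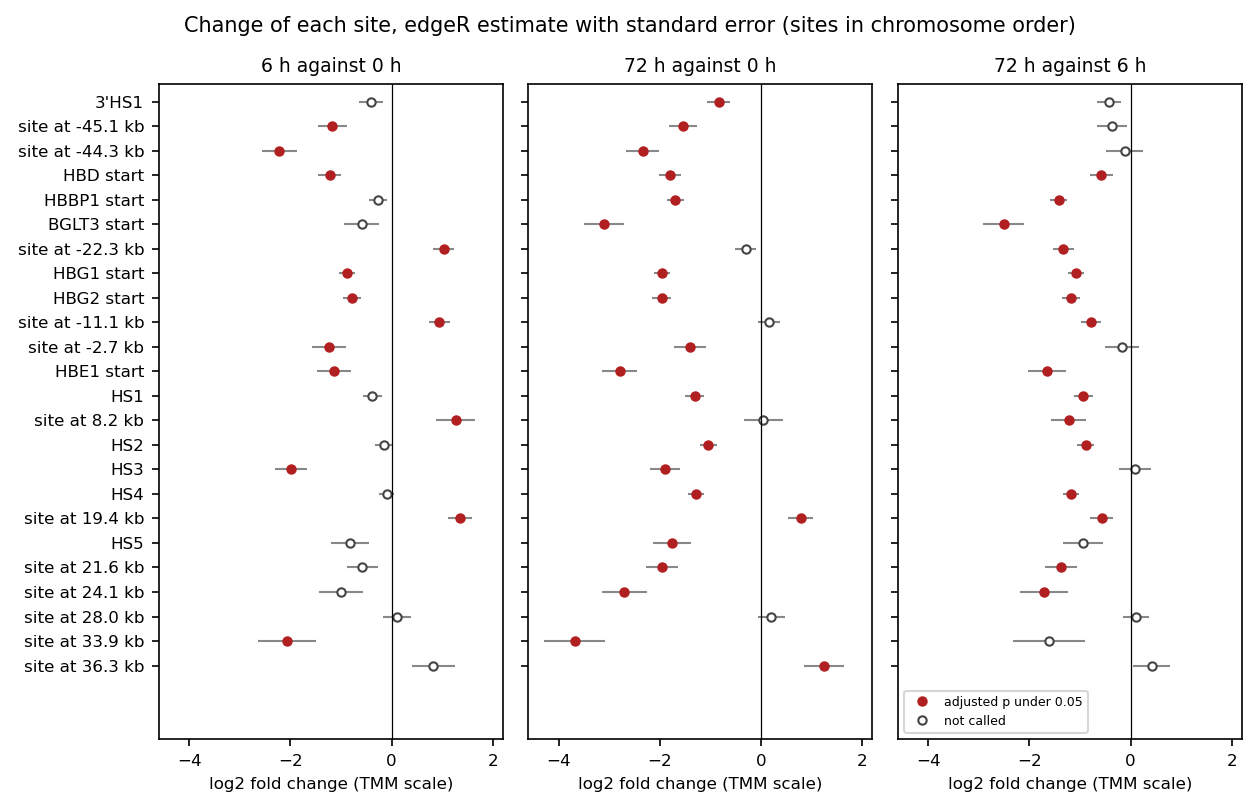
Log2 fold change of each of the 24 sites (horizontal axis, TMM scale) for the 3 comparisons, with bars for 1 standard error and filled points for sites called at an adjusted p under 0.05. HS3 and the HBB 3′ end (the site at −44.3 kb) lie near −2 at both 6 and 72 h, while HS2 and HS4 lie near 0 after 6 h and below −1 after 72 h.

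Sites that rose after 6 h lay beside the gene starts and the named hypersensitive sites and not on them. The site 318 bases beyond the 3′ end of HBG1, chr11:5247327-5247951, lies where an enhancer of this gene is known. It had 9.03 and 8.31 CPM at 0 h, 15.5 and 19.5 after 6 h, and 6.60 and 7.45 after 72 h. Both 6 h libraries stood above all others. The site rose by 1.03 (SE 0.21, edgeR adjusted p 0.00042) on the log2 scale after 6 h, fell by 1.33 (SE 0.20, 2.3e-05) from there to 72 h, and was at −0.30 (0.201) against 0 h at the end. A site 3698 bases beyond the HBG2 start, toward HBE1, chr11:5258479-5259167, had 6.82 and 7.88 CPM at 0 h, 12.8 and 15.4 after 6 h, and 7.91 and 8.51 after 72 h, with a rise of 0.94 (SE 0.21, adjusted p 0.0012) after 6 h. Its fall from 6 to 72 h (−0.79, adjusted p 0.0036) was not called without 6 h replicate 2 (0.089), 72 h replicate 1 (0.081) or 72 h replicate 2 (0.051), nor under 3 of the 5 scalings. The small site between HS1 and HS2, chr11:5278045-5278253, with 19 to 104 counts, was at 1.27 after 6 h (adjusted p 0.011), but not called without 6 h replicate 2 (0.82, 0.226) or 0 h replicate 2 (1.19, 0.056), under loess offsets (0.95, 0.055) or with DESeq2 (1.1, 0.073).

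The site next to HS4, chr11:5289020-5289623, was the only member called higher after 6 h and after 72 h. It had 5.46 and 3.49 CPM at 0 h, 11.2 and 11.4 after 6 h, and 7.14 and 8.02 after 72 h. The groups did not overlap. It rose by 1.35 (SE 0.25, edgeR adjusted p 0.00015) on the log2 scale after 6 h and was at 0.78 (SE 0.24, 0.0075) after 72 h. The 72 h call was lost without 0 h replicate 2 (0.47, adjusted p 0.130), without 72 h replicate 2 (0.69, 0.074) and with DESeq2 (0.59, 0.060), and it held under all 5 scalings. Further out, toward the olfactory receptor gene OR51B4, the sites diverged. The site at 33.9 kb, chr11:5303729-5304018, had 22 and 32 counts at 0 h, 2 and 14 after 6 h and 6 and 3 after 72 h, and changed by −2.06 (SE 0.57, adjusted p 0.0061) and −3.68 (SE 0.60, 1.6e-05). Without 6 h replicate 2 its 6 h value was −3.14. The site at 24.1 kb, chr11:5293870-5294187, was at −1.0 (adjusted p 0.066) after 6 h, a value called without 0 h replicate 1 (−1.24, 0.046) or 6 h replicate 1 (−1.63, 0.0093), under RLE (−1.15, 0.031), under loess offsets (−1.33, 0.016) and with limma-voom (−1.22, 0.013), and at −2.71 (SE 0.44, 1.6e-05) after 72 h. The site at 36.3 kb was at 1.24 (adjusted p 0.0092) after 72 h, from 13 and 16 counts at 0 h, and lost this call without 0 h replicate 2 (1.16, 0.053) or 72 h replicate 1 (1.05, 0.095), under loess offsets (0.50, 0.288) and with DESeq2 (1.06, 0.082). The site at 28.0 kb, with 3.57 to 4.22 CPM in all 6 libraries, was the only member not called over the time course (adjusted p 0.763), although it was called higher after 72 h under total counts (0.70, 0.021) and shared-peak TMM (1.17, 0.00043).

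Ratios of counts within a library do not change with a scaling factor per library, though loess offsets, which vary with site strength, would change them. The 5 control region sites together held 35.5% and 34.6% of the window's counts at 0 h, 35.4% and 35.2% after 6 h, and 35.3% and 35.4% after 72 h. The 6 gene start sites held 42.9% and 45.2%, then 35.5% and 33.1%, then 28.2% and 29.7%, while the 12 other sites held 19.0% and 17.7%, 26.7% and 29.3%, and 33.0% and 31.3%. As sums, the control region thus kept its share of the window while the gene starts had less of it at each later time. Single sites did not all follow their class. HS3 went from 7.29% and 3.91% at 0 h to 2.47% and 1.39% after 6 h, and HS2 from 9.43% and 9.82% to 12.2% and 10.4%. The HBD start had 2.55% and 3.68% after 6 h and 3.88% and 4.22% after 72 h. Relative to HS2, the HBG1 start had ratios of 1.38 and 1.42 at 0 h, 0.782 and 0.915 after 6 h, and 0.746 and 0.741 after 72 h. The HBE1 start had 0.204 and 0.125, 0.0755 and 0.0904, and 0.0481 and 0.0485. HS3 had 0.773 and 0.398, 0.202 and 0.134, and 0.288 and 0.355, with the 6 h libraries below all others. For HS4 relative to HS2 the 0 h values of 1.21 and 1.16 lay within the 6 h values of 1.08 and 1.41, and the 72 h values were 1.05 and 0.970. The site beyond HBG1 had 0.226 and 0.210 of the HBG1 start's counts at 0 h, 0.703 and 0.924 after 6 h and 0.657 and 0.713 after 72 h. The site next to HS4 had 0.156 and 0.107 of the counts of HS4 at 0 h, 0.367 and 0.349 after 6 h, and 0.505 and 0.586 after 72 h. None of these ratios was tested, for the same reason as the share of the window.

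**Figure D3:**
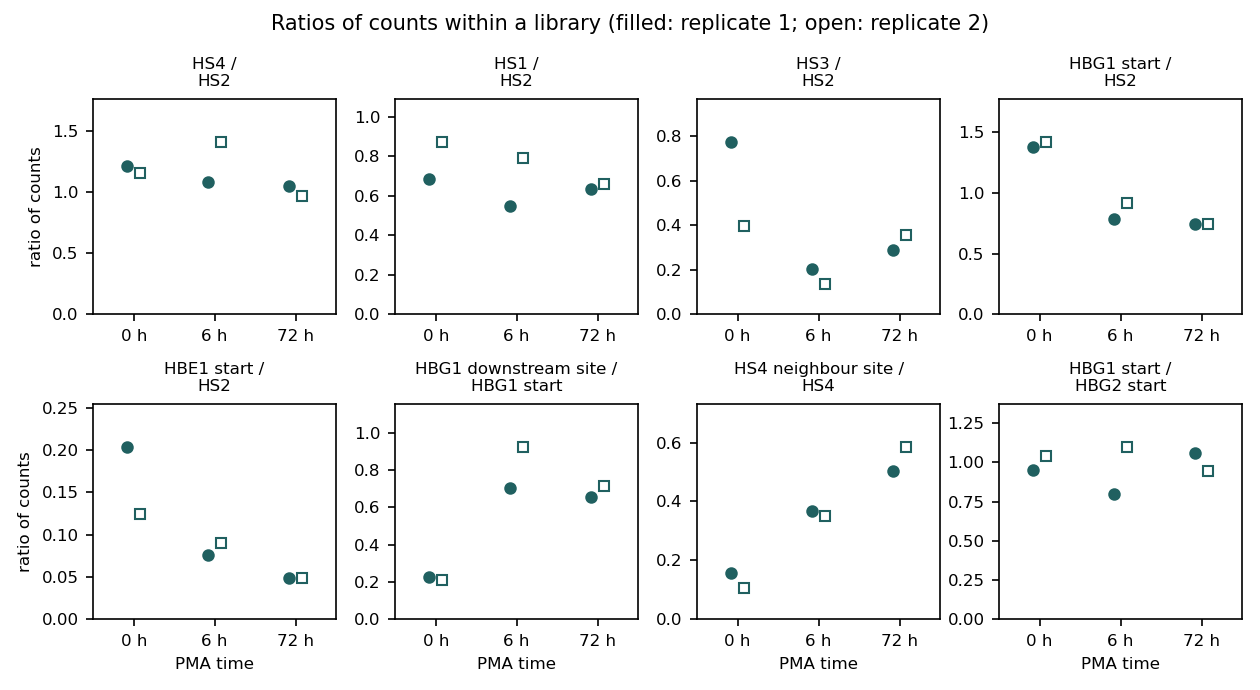
Ratio of the counts of 2 sites within each library (vertical axis, from 0) by time of PMA treatment, with filled circles for replicate 1 and open squares for replicate 2. HBG1 and HBE1 starts are lower relative to HS2 in all later libraries than in either 0 h library, while the site beyond HBG1 and the site next to HS4 are higher relative to their neighbours.

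On a scale per length, the order of levels changed with time. At 0 h the HBG1 start led with 52.3 ± 0.316 CPM per kb (SD, n = 2), and the HBG2 start (51.9 ± 3.48) did not differ from it beyond that spread. HS2 (38.3 ± 0.922), HS3 (31.9 ± 15.1), HS1 (31.1 ± 4.52), HS4 (26.4 ± 1.44) and the HBD start (21.9 ± 4.11) followed, and the SD of HS3 covers both of its neighbours. After 6 h HS2 led with 34.6 ± 4.88 CPM per kb, within the spread of the HBG2 start (30.4 ± 7.76), and the HBG1 start (28.4 ± 0.885) and the site beyond it (28.0 ± 4.53) were level. After 72 h HS2 led with 18.6 ± 0.621, above the HBG1 start (13.5 ± 0.383) and the HBG2 start (13.3 ± 1.504). HS3 went from 4th place at 0 h to 15th after 6 h and 9th after 72 h.

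**Figure D4:**
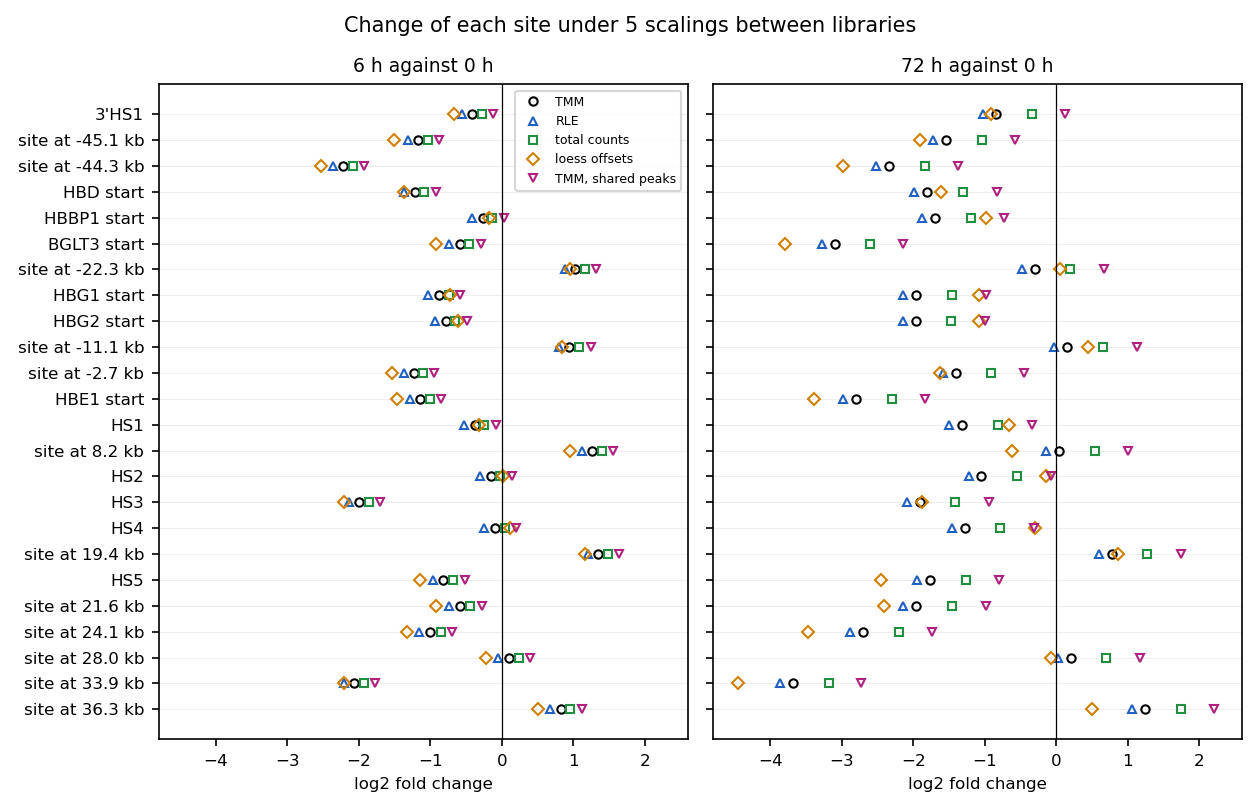
Log2 fold change of each site (horizontal axis) after 6 h and after 72 h against 0 h under 5 scalings between libraries, with 1 symbol per scaling. The values of a site spread more after 72 h than after 6 h, where HS2 ranges from −1.23 to −0.08 and HS4 from −1.46 to −0.29.

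The scaling sets how many sites count as lower. Comparing 72 h with 0 h, the share of called sites that were higher was 10.0% with TMM, 9.52% with RLE, 19.0% with total counts, 5.88% with loess offsets and 35.3% with shared-peak TMM. The median of all tested sites after 72 h was 0.29, 0.11, 0.79, −0.04 and 1.26 in the same order, and that of the window −1.62, −1.80, −1.12, −1.08 and −0.65, below it each time. After 6 h the shares were 30.8%, 25.0%, 30.8%, 17.6% and 38.5%, and between 6 and 72 h they were 0% under the first 4 and 22.2% under the last. Over all tested sites, TMM called 38.2% higher and 29.2% lower at 72 h against 0 h. It called 23.4% higher and 16.8% lower after 6 h, and 22.1% and 20.9% between 6 and 72 h. The split of all sites under the other scalings is not given here. Under all 5 scalings, 8 sites were called lower and 3 higher after 6 h, and 11 lower and 1 higher after 72 h. How many of all tested sites met this rule was not counted, so these numbers have no background beside them. The 11 were the 6 gene start sites, HS3, the HBB 3′ end, the outer neighbour of HS5 and the sites at 24.1 and 33.9 kb.

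The deposited peak lists hold the authors' own calls per library and are used here to rank sites within a list. Of the window's sites, 14 and 17 had a peak at 0 h, 14 and 15 after 6 h, and 15 and 15 after 72 h, while the whole lists grew from 61873 and 69152 peaks at 0 h to 138914 and 142305 after 72 h. By the authors' q-value, HS2 stood behind 16.4% and 16.8% of its list at 0 h, 9.06% and 11.2% after 6 h, and 5.08% and 7.69% after 72 h. The HBG1 start stood behind 17.3% and 9.03% at 0 h and 26.1% and 20.5% after 72 h. The lists differ in length, so these ranks show no change by themselves.

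Factors that act on the globin genes had 24 sites at the ends of 14 genes, among them GATA1, TAL1, KLF1, NFE2, BCL11A and ZBTB7A. Here 12 sites fell and 1 rose after 6 h, and 18 lower and 1 higher after 72 h, with medians of −0.54 and −1.39. In the alpha-globin window of equal size on chromosome 16 (80000 to 200000), which holds the genes of the partner chains, 14 of 25 sites were lower and 2 higher after 6 h, and 20 lower and 3 higher after 72 h, with medians of −0.76 and −1.49. The 26 sites in the flanks of 120 kb on each side of the beta-globin window, where olfactory receptor genes lie, had 8 lower and 2 higher after 6 h and 15 lower and 2 higher after 72 h, with medians of −0.60 and −1.02. Over all tested sites, 16.8% were lower and 23.4% higher after 6 h, and 29.2% and 38.2% after 72 h. Over sites with a peak in all 6 libraries these shares were 35.0% and 13.3%, then 67.9% and 9.46%. The 3 lists hold sites whatever their peaks. They had 75%, 80% and 57.7% of their sites lower after 72 h, above the 29.2% of all tested sites. These shares lay on either side of the 67.9%, which is for sites with a peak in all 6 libraries only. The comparisons have the 0 h libraries in common, and the differences between the lists were not tested. Among 19121 tested sites at the ends of protein-coding genes elsewhere, the 5 with the profile closest to HS2 lay at ANKRD46, at DCTN5 and PALB2, at HPS3, at KICS2 and at TAF13. Over the 6 libraries they differed from HS2 by a root mean square of 0.0749 to 0.0834 in log2 CPM.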

How the data were processed

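Counts per site in 6 ATAC-seq libraries were taken as deposited. The submitters' processing notes name hg38, Trim Galore 0.4.3, BWA 0.7.17, SAMtools 1.9, deepTools 3.0.1, MACS2, bedtools 2.26 and DESeq. The role of each tool, and whether reads were shifted for the transposase, are not given in the sources used here. Beside the counts, the deposited table lists the authors' log2 fold changes, their adjusted p-value over the time course and the name of a class. The deposited peak lists give a score, a fold enrichment over background and −log10 p and q per peak, called per library. Starts in the deposited table equalled a peak start counted from 0 in 20.6% of sites, so 1 was added to print coordinates.

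All sites were fitted together with edgeR 4.0.16 in R 4.3.3 (TMM scaling, its default filter with a minimum of 10 counts, a quasi-likelihood model of 3 times, Benjamini-Hochberg over 177759 sites). Standard errors are the log2 fold change over the root of F, and CPM uses TMM-scaled totals. The biological coefficient of variation was 0.166, and replicates differed by 3.51 to 4.97 times sampling noise (chi-square per degree of freedom). DESeq2 1.42.0 and limma-voom (limma 3.58.1) were alternatives. Genes came from a RefSeq table of GRCh38.p14, without exons. The strand of the globin genes other than HBD was added from general knowledge. Of the 5 globin genes, 1 matched in the RefSeq promoter table. By rule, all gene start and hypersensitive sites and the 3 other sites with the largest called change at 6 h and at 72 h were described in full (the sites at −44.3, 19.4, 24.1 and 33.9 kb). Values of further sites were chosen after they were seen. Members and lists were chosen with earlier results of these data known.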

Additional observations from a re-analysis of the deposited data

Results flagged for a closer look

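The site beyond the 3′ end of HBG1 (chr11:5247327-5247951) is listed because its change had opposite signs at 6 and 72 h and the 2 times differed in their own test. It rose at 6 h (1.03, edgeR adjusted p 0.00042) and differed by −1.33 between 6 and 72 h (2.3e-05). The sign at 72 h against 0 h depends on the scaling. It was −0.30 under TMM, −0.48 under RLE (adjusted p 0.049) and 0.67 (0.0065) under shared-peak TMM. The fall from 6 to 72 h was called under all 5 scalings.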

How the results depend on the processing

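Under TMM, 15 of the 24 sites were called between 6 and 72 h, a larger share than the 42.9% of all tested sites. Shared-peak TMM called 9, a smaller share than among all tested sites under that scaling. It turned the sign of 11 of 72 single-site values, 4 of which were called under this scaling or under TMM: 3′HS1 at 72 h against 0 h (0.13), the site beyond HBG1 at 72 h against 0 h (0.67), the HBD start (0.09084) and the site next to HS4 (0.10) between 6 and 72 h. The other alternatives kept each count of called sites within 1.5 times the value given. Of 1080 single-site values under the alternatives, 975 kept their side of the threshold, 75 lost and 30 gained a call. Leaving out 1 library gave 10 to 14 called sites at 6 h, 18 to 20 at 72 h, 10 to 15 between them and 21 to 23 over the time course. Without 0 h replicate 2 no site was called higher at 72 h. In each comparison, leaving out a library of either compared time also lowered the share of all tested sites called. Lower counts were thus not particular to the window. With a replicate block the counts were 14, 20, 15 and 23, and the share of all tested sites called was slightly higher each time. With the block, the site at 24.1 kb was called at 6 h (−1.03, adjusted p 0.047), and no other single-site call changed. Same-numbered libraries deviated together with correlations of 0.08, 0.05 and 0.09 across sites, so the numbers were not taken as pairs. The share of counts in the window at 0, 6 and 72 h was 0.0255%, 0.0215% and 0.0144%. Over the counts of sites with peaks in all libraries it was 0.0329%, 0.0311% and 0.0273%. For HS1 to HS5 alone it was 0.00896%, 0.00759% and 0.00510%, and without the HBG1 and HBG2 starts 0.0186%, 0.0172% and 0.0119%. Depth limits the 3 weakest sites, which had 13 to 32 counts at 0 h. The cause of these shifts was not tested.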

Other observations

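The class names in the authors' deposited table do not follow the direction of the fold changes beside them. Of 8943 sites named downEarly in the authors' deposited table, 6214 (69.5%) had a positive log2 fold change at 72 h there, close to the 69.3% of 5431 sites named upEarly. The shares in the authors' deposited table were 71.9% for downLate, 71.1% for upLate and 47.6% for static. In the globin window, the HBB 3′ end and the outer neighbour of HS5 are named upLate in the authors' deposited table, beside its log2 fold changes of −2.40 and −2.04 at 72 h. HS3, with −1.998 at 6 h in the authors' deposited table, is named static. The class names were therefore not used.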
